A study of Mus musculus with 4 samples.

Results

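Myc, Mycn and Max were followed at the transcript level in 292 single haematopoietic stem cells (HSCs) of the mouse. They are 3 of the 13742 genes counted, and each was found by its symbol and gene identifier. Myc and Mycn encode the MYC family transcription factors of these cells, and Max encodes their shared partner. The study sorted HSCs from the bone marrow of wild-type mice, aged 8 weeks, to ask how HSCs without and with surface CD27 differ. All cells carried the ESLAM SK phenotype: negative for lineage markers and CD48, and positive for Kit, Sca-1, CD150 and EPCR (CD201). RNA was tagged cell by cell in a modified Smart-seq2 (STRT-seq) protocol that counts 3′ ends, and barcoded cDNA was pooled into 4 libraries. Every library is labelled with both gates, CD27- and CD27+, but no source used here gives the gate of a single cell. All libraries therefore form 1 group (n = 4) and no gates were compared. Whether each library came from its own mice is not stated, so the spread between libraries may be technical.

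MYC and MYCN are basic helix-loop-helix leucine zipper proteins that bind DNA as dimers with MAX, mostly at the sequence called the E-box. The MXD proteins, MNT and MGA dimerise with the same MAX and oppose MYC at those sites. Their best known target genes drive ribosome production, metabolism and cell growth. In mouse HSCs Myc and Mycn are known to stand in for each other in part, and low MYC activity is associated with retention in the niche and self-renewal.

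On GRCm38, Myc lies at chr15:61985391-61990374 on the plus strand (ENSMUSG00000022346.15). Mycn lies at chr12:12936093-12941914 (ENSMUSG00000037169.15) and Max at chr12:76937269-76962201 (ENSMUSG00000059436.13), both on the minus strand. All are protein coding in GENCODE M21. An unclassified transcript, Gm47218, lies within Max on the same strand at chr12:76940475-76941793, so reads there could belong to either. The transcripts of Myc, Mycn and Max share 0 runs of 25 identical bases with each other.

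DNA near the start sites of Mycn and Max is shown because each window holds a match to a known binding sequence, of E2F factors or the E-box. The set of start-site windows used here had none for Myc, so Myc was not searched. Sequences are from RefSeq on GRCm38.p6, read 5′ to 3′ on the minus strand. In the Mycn window, chr12:12941917-12942036, capitals mark the E2F motif TTTGGCGC, which begins 183 and 168 bases before the start site. E2F factors drive genes of the G1 to S transition. In the Max window, chr12:76962219-76962338, capitals mark the E-box CACGTG, which begins 3 bases before the start site.
Mycn, 200 to 81 bases before the start site: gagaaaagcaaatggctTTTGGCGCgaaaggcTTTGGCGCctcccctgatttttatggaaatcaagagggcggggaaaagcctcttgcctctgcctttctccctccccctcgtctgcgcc
Max, 90 bases before to 30 bases after the start site: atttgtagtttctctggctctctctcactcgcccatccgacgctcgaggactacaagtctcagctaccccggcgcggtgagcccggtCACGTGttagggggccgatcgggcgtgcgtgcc
Both strands were searched from 250 bases before to 50 bases after each start site. The E-box reads the same on both strands and was found in 2349 of 32851 windows (7.15%). The E2F motif was found in 169 of them (0.514%). A match describes the letters and not a bound site.

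Transcripts of the sort markers were found, though not in every cell. Over the libraries, Ly6a (Sca-1) averaged 680 ± 93.3 CPM (SD, n = 4; CPM are counts scaled to a common total of 1e+06, here over the summed kept cells of a library), Procr (EPCR) 296 ± 47.8 CPM, Kit 222 ± 16.7 CPM and Slamf1 (CD150) 58.5 ± 27.5 CPM. Of the 297 deposited cells, 292 had at least 10000 counts and 1000 genes, 74, 75, 71 and 72 in libraries 1 to 4. Among these 292 cells, 271 had a Ly6a count, 248 a Kit count, 222 a Procr count and 75 a Slamf1 count. Library totals ran from 5250569 to 11207442 counts and the median cell from 65416 to 142675. The median nonzero value was 18 counts and 14.1% of nonzero values were 1, and the sources used here do not say whether molecular identifiers were collapsed, so a count is not 1 molecule. Detection rises with depth, so cells were also thinned to 30000 counts, which left 276 cells and left out 16. In library 2, 8 consecutively numbered cells, and in library 4, 7, each correlated above 0.15 with at least 5 other kept cells, of any library. Those 15 cells, called the runs here, had a Myc count in 5, a Mycn count in 3 and a Max count in 3, and results that rest on them are also given without them.

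Myc was found in 45 of 74, 48 of 75, 39 of 71 and 39 of 72 cells of libraries 1 to 4. The shares were 60.8% (95% exact Clopper-Pearson interval 48.8 to 72.0), 64.0% (52.1 to 74.8), 54.9% (42.7 to 66.8) and 54.2% (42.0 to 66.0), a mean of 58.5% ± 4.7 (SD, n = 4). The 4 intervals overlap, and they cover counting error only. Myc stood at 259, 377, 239 and 254 CPM in libraries 1 to 4, a mean of 282 ± 63.5 (SD, n = 4). Library 2 stood above the other 3 on this scale, which gives deep cells more weight. With every cell weighted alike, the mean CPM per cell was 266, 276, 224 and 195, and library 2 stood close to library 1. Without the runs the mean level was 289.8 ± 69.9 CPM.

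Mycn was detected in 52 of 74, 41 of 75, 42 of 71 and 48 of 72 cells. The shares were 70.3% (58.5 to 80.3), 54.7% (42.7 to 66.2), 59.2% (46.8 to 70.7) and 66.7% (54.6 to 77.3), a mean of 62.7% ± 7.1. Mycn stood at 249, 200, 198 and 265 CPM, a mean of 228 ± 34.1. Libraries 1 and 4 were the higher pair in both measures, where Myc had its highest level in library 2. The order of the libraries therefore differed between Myc and Mycn, although the shares of cells overlapped within their intervals.

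Max was detected in 32 of 74, 21 of 75, 29 of 71 and 29 of 72 cells. The shares were 43.2% (31.8 to 55.3), 28% (18.2 to 39.6), 40.8% (29.3 to 53.2) and 40.3% (28.9 to 52.5), a mean of 38.1% ± 6.8. Max stood at 91.4, 66.4, 114 and 91.8 CPM, a mean of 91.0 ± 19.6. Library 2, the highest for Myc, was the lowest for Max in both measures. Counts are not molecules here, so the levels of different genes are not ranked against each other.

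**Figure D1:**
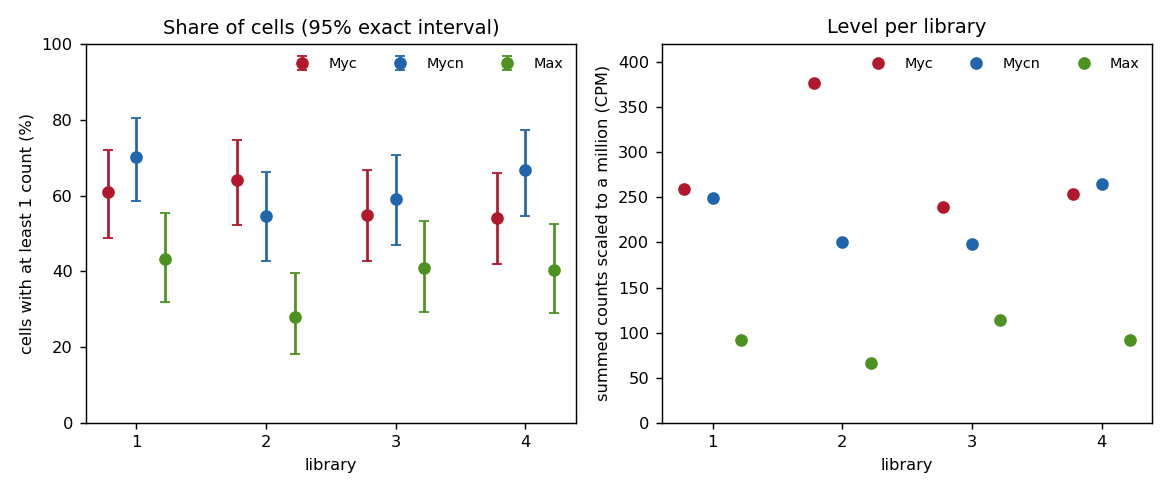
Share of cells with at least 1 count (percent, with 95% exact binomial intervals) and level (CPM) of Myc, Mycn and Max in each of the 4 libraries. The intervals overlap between libraries for each gene, and the Myc level of library 2, at 377 CPM, lies above the other 3, at 239 to 259 CPM, which the mean CPM per cell does not show.

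Within a library the 3 transcripts were very unevenly spread over cells. The 10 cells with the most Myc counts held 67.8%, 69.7%, 71.3% and 66.2% of all Myc counts in libraries 1 to 4. Without the 5 top cells of each library Myc stood at 163, 230, 121 and 159 CPM. For Mycn the 10 top cells held 51.1% to 66.0% of its counts, and for Max 61.8% to 83.2%. Cells were ranked by counts, so deep cells weigh more. Such a spread was not particular to these 3 genes: for Mga the 10 top cells held 64.9% to 94.9%. The library level of each gene was thus set largely by a small number of cells.

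Among the 171 cells with Myc the median was 25 counts, with quartiles of 3 and 69 and a maximum of 465. Among the 183 cells with Mycn the median was 27 counts (quartiles 7.5 and 52, maximum 439), and among the 111 with Max 21 counts (quartiles 6 and 36, maximum 130). Having a count is a cut through a range of levels and not a cell type. Near that cut, 41 cells had 1 or 2 Myc counts, 27 had 1 or 2 Mycn counts and 22 had 1 or 2 Max counts. Asking for at least 3 counts left Myc in 44.5% ± 3.8 of cells, Mycn in 53.4% ± 7.4 and Max in 30.5% ± 6.5. A cell with no count at this depth may still hold the transcript.

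**Figure D2:**
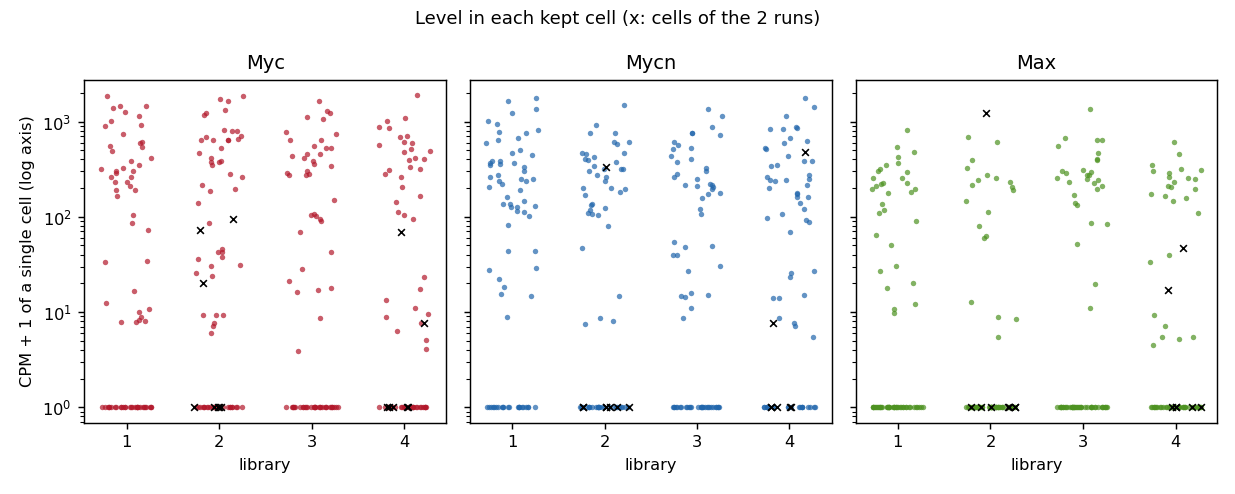
Level of Myc, Mycn and Max in each of the 292 cells, as CPM of the cell plus 1 on a log axis, by library, with crosses for the cells of the runs. Each gene spans from 0 to high values in every library, with the maximum at 465 counts in a cell for Myc, 439 for Mycn and 130 for Max.

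The other members of the network, which compete with MYC for MAX or form its parallel branch, were each detected in part of the cells. Mga, the large repressor that carries a T-box beside its MAX-binding domain, had a count in 101 of 292 cells and averaged 73.6 ± 15.0 CPM. Among the MXD repressors, Mxd1 had a count in 66 cells (31.5 ± 13.0 CPM), Mxd4 in 44 (18.9 ± 8.9 CPM), Mxi1, also known as Mxd2, in 39 (23.8 ± 14.1 CPM) and Mxd3 in 6. Mxd3 had no count in libraries 2 and 4. Mnt, an antagonist of MYC expressed in most tissues, had a count in 51 cells and averaged 23.6 ± 9.2 CPM. In the parallel branch of the network, Mlx, the partner of the MondoA protein, had a count in 24 cells and Mlxip, which encodes MondoA, in 44. Mycl and Mlxipl were not analysed here.

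Of the 14 cofactors listed for MYC with counts, the helicase genes Ruvbl1 (221 ± 16.3 CPM) and Ruvbl2 (88.7 ± 7.1 CPM) and the SWI/SNF gene Smarcb1 (129 ± 13.3 CPM) had the most counts. Counts are not molecules here. Trrap, the scaffold that brings histone acetyltransferases to MYC, stood at 37.7 ± 12.9 CPM, and Zbtb17, which encodes the MYC partner MIZ1, at 24.3 ± 11.2 CPM. Among genes for turnover of MYC protein, the ubiquitin ligase gene Huwe1 stood at 108 ± 23.0 CPM and the kinase gene Gsk3b at 64.3 ± 18.0 CPM. Fbxw7, which encodes the ubiquitin ligase subunit that recognises phosphorylated MYC, had a count in 17 cells and stood at 11.1 ± 3.2 CPM.

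Most cells held Myc or Mycn or both. After thinning to 30000 counts, 84 of 276 cells had both, 58 had Myc only, 73 had Mycn only and 61 had neither, so 77.9% had at least 1 of them. All 3 genes had a count in 29 cells, Max alone in 17, and none of the 3 in 44. At the deposited depth 112 of 292 cells had both Myc and Mycn, 59 Myc only, 71 Mycn only and 50 neither.

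Myc and Mycn were found together about as often as their separate shares give. The 84 cells with both stand beside 80.6 from the product of the shares within each library, and the ratio averaged 1.03 ± 0.18 (SD, n = 4 libraries). Library 1 had 28 such cells against 23.2 and library 4 had 21 against 18.2, while library 2 had 20 against 21.1 and library 3 had 15 against 18.0. The libraries thus fell on both sides of 1, from 0.831 to 1.21. Myc and Max were together in 52 cells against 48.2 (ratio 1.09 ± 0.13), and Mycn and Max in 54 against 53.9 (0.99 ± 0.085). No pair of the 3 departed from its product of shares by more than about 1 SD over libraries, which does not show that they are independent.

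**Figure D3:**
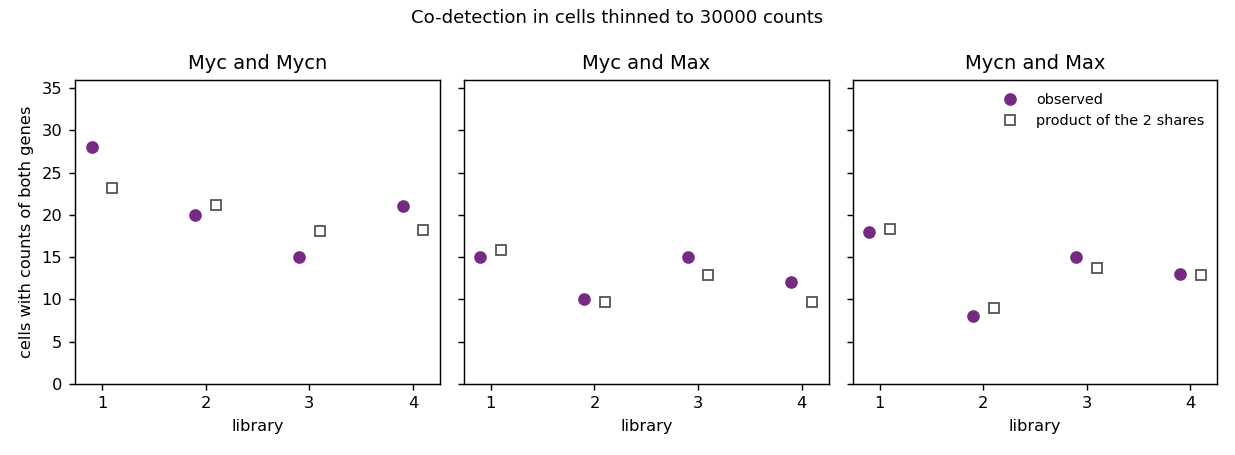
Number of cells with counts of both genes of a pair, observed and as the product of the 2 shares within each library, after thinning to 30000 counts. Observed and product values lie close together, 84 and 80.6 cells over all libraries for Myc and Mycn.

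Their amounts were also hardly related from cell to cell. Across the 64 to 72 thinned cells of a library, Spearman's rho of Myc with Mycn was 0.043, 0.011, -0.23 and 0.19 in libraries 1 to 4. The mean rho was 0.050 ± 0.081 for Myc with Max and -0.002 ± 0.10 for Mycn with Max. Cells of a library share its preparation, counts are sparse, and these values are given as a description.

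The cycling genes Mki67, Top2a and Cdk1 were each found in under 20% of cells and Pcna in over 50%, and the 3 genes were detected both among those cells and in the others. Mki67, a marker of proliferating cells, had a count in 13 of the 276 thinned cells, of which 6 had Myc, 8 Mycn and 2 Max. Top2a, the topoisomerase of S and G2 phase, had a count in 39 cells, of which 38.5% had Myc, 61.5% Mycn and 35.9% Max, against 53.6%, 56.1% and 33.8% of the cells without Top2a. For Cdk1, the mitotic kinase, the 44 cells had Myc in 56.8%, Mycn in 65.9% and Max in 43.2%, against 50.4%, 55.2% and 32.3% of the other cells. For Pcna, the DNA polymerase clamp of S phase and of DNA repair, the 148 cells had Myc in 53.4%, Mycn in 60.1% and Max in 32.4%, against 49.2%, 53.1% and 35.9% of the other cells. These shares pool the libraries and were not tested. Of the cells with Myc 4.23%, and of the cells with Mycn 5.10%, also had Mki67, both near its share of all thinned cells, 13 of 276.

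Each gene was then set beside the mean log level of gene lists across the cells of each library. The number of genes detected per cell, a measure of RNA content and library quality at equal depth, itself moved with the members. Its mean rho was 0.23 with Myc, 0.23 with Mycn and 0.10 with Max. Its part in the values that follow was therefore measured with a partial rho given genes detected, an alternative added after seeing the data.

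Mycn had its highest list values with oxidative phosphorylation and with MYC targets of metabolism and growth. With oxidative phosphorylation, the respiratory chain and ATP synthase subunits, rho was 0.16, 0.44, 0.41 and 0.27 in libraries 1 to 4, a mean of 0.32 ± 0.13. Given genes detected the mean was 0.24 ± 0.083. With MYC targets rho was 0.17, 0.36, 0.34 and 0.24, a mean of 0.28 ± 0.090, and 0.18 ± 0.032 given genes detected. All 4 libraries were positive in both lists and both ways. The corresponding means for Myc were lower, 0.10 with oxidative phosphorylation and 0.18 with MYC targets, and -0.03 and 0.06 given genes detected, though the difference between the genes was not tested.

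Myc had positive values with ribosome biogenesis genes and with immediate early genes in all 4 libraries. With ribosome biogenesis, the nucleolar factors that build ribosomes, rho of Myc was 0.24, 0.32, 0.18 and 0.11, a mean of 0.21, and 0.13 given genes detected, with 1 library at -0.06. With immediate early genes, which respond to stimulation and to handling of cells within minutes, rho of Myc was 0.23, 0.06, 0.17 and 0.31, a mean of 0.19, and 0.15 given genes detected. The immediate early list also holds the heat shock genes Dnajb1, Hspa1a and Hspa1b. With S phase genes Myc averaged 0.14 and Mycn 0.15, and given genes detected 0.051 and 0.061. With G2/M genes Myc averaged 0.18 and Mycn 0.062, and given genes detected 0.098 and -0.039, so the mean for Mycn changed sign. With the HSC identity list the means were 0.00 for Myc, 0.06 for Mycn and 0.00 for Max, with libraries of both signs. When the counts of the list were summed, its most abundant genes weighed most. The mean for Myc was then -0.20, from -0.40 to -0.005, negative in all 4 libraries. The most abundant were Ifitm1 (3159 ± 244 CPM) and Ifitm3 (1857 ± 156 CPM), and Ifitm1 alone had a mean rho of -0.20 with Myc. Their part in the summed value was not tested.

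Max had libraries of both signs with the growth lists. Its mean rho was 0.05 with ribosome biogenesis, with libraries from -0.30 to 0.31, 0.14 with MYC targets, from -0.08 to 0.36, and -0.13 with ribosomal protein genes. With the quiescence and dormancy list, which holds Apoe and Txnip, rho of Max was 0.12, 0.21, 0.25 and 0.15, a mean of 0.18 and 0.19 given genes detected. With immediate early genes the mean was 0.16, and 0.14 given genes detected. Both lists hold Egr1, Nr4a1 and Btg2, so these are not separate relations. These are weak relations in sparse counts.

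**Figure D4:**
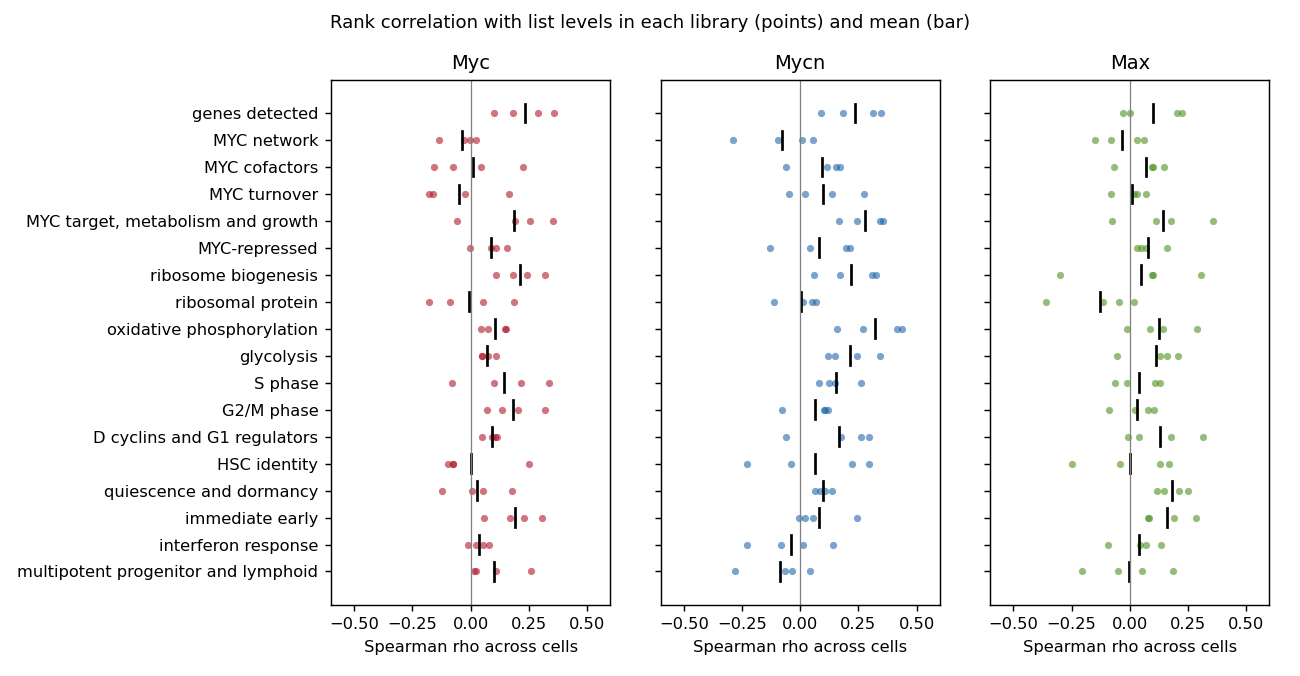
Spearman's rho across thinned cells between Myc, Mycn or Max and the mean log level of each gene list, with 1 point per library and a bar for the mean of 4. The Mycn points for oxidative phosphorylation run from 0.16 to 0.44, and most other lists scatter around low values.

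Ranked over 4538 genes with a count in at least 20% of cells, no gene followed a member closely. For Myc the highest mean rho belonged to Ier3 (0.26), an immediate early response gene, then Tmem191c, Pigc, Snx4 and Hdac2 (0.23), and the lowest to B2m (-0.21), the light chain of MHC class I, then Rps3, Ifitm1, S100a4 and Pole. For Mycn the highest was Enpp4 (0.30), then G3bp1, Afg3l2, Tmem242 and Asph, and the lowest B2m (-0.21), Fcer1g, Ctla2a, Car2 and Srgn. For Max the highest were Hspa5 (0.26), the chaperone of the endoplasmic reticulum, Phb (0.25), Dusp1 and Cyp4f16, and the lowest Rpl34 (-0.21), Hipk1, Rps26, mt-Co2 and Eif4enif1. All of these had the same sign in the 4 libraries, which the ranking required, and they are the extremes of a list of 4538.

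For tests, cells with a thinned count of a member were summed per library and set against the summed cells without it, leaving that member out, by edgeR's quasi-likelihood test with the library as a block and Benjamini-Hochberg adjustment over all genes. The split took 142 cells with Myc and 134 without, 157 with Mycn and 119 without, and 94 with Max and 182 without. Despite the thinning, the classes differed in deposited depth. The median was 96086.5, 119511, 75666 and 200172 counts in cells with Max, against 90683.5, 102850, 65416 and 128524 in cells without. It was also higher with Mycn in every library, and with Myc in libraries 2 and 4 only. The part of depth in the calls was not tested. Levels of single genes in these classes are CPM after TMM scaling, and summed levels of lists are plain CPM. The 3 comparisons share the same cells, so their results are given side by side and are not independent.

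Cells with Myc had higher Junb, Ier2 and Fos, and no other gene passed the threshold of 0.05 in edgeR's test. These are immediate early genes: Junb and Fos encode subunits of the AP-1 transcription factor and Ier2 a nuclear regulator. The 3 calls are 0.0661% of the 4538 genes tested, and 234 genes (5.16%) had an unadjusted p under 0.05. Junb stood at 1109, 833, 949 and 825 CPM in cells with Myc of libraries 1 to 4, against 482, 759, 512 and 503 CPM in cells without. The ranges did not overlap, and library 2 had the smallest gap. Its log2 fold change was 0.74 (SE 0.14, adjusted p = 0.0261, edgeR).

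Ier2 stood at 1703, 1426, 1325 and 2096 CPM in cells with Myc, against 1194, 988, 1031 and 1453 in cells without. It was higher in 4 of 4 libraries, with overlapping ranges (log2 fold change 0.48, SE 0.09, adjusted p = 0.0261, edgeR). Fos was higher in 4 of 4 libraries too, by 0.36 on the log2 scale (SE 0.07, adjusted p = 0.0261). All 3 calls were lost without the runs, with adjusted p of 0.184 for Junb, 0.155 for Ier2 and 0.190 for Fos and log2 fold changes of 0.67, 0.43 and 0.31. The runs put 3 cells among those with Myc and 9 among those without. All 3 calls were also lost without library 1, without library 4, without the replicate block, at the deposited depth, with at least 3 thinned counts and with another random thinning, and Ier2 without library 2. Every log2 fold change of the 3 genes stayed positive in these alternatives.

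Of the 16 immediate early genes tested in this comparison, 3 passed, 15 had a positive log2 fold change and 9 had an unadjusted p under 0.05. Their median was 0.35, against 0.00 for all genes. Their summed level was 20558 ± 2636 CPM in cells with Myc and 16562 ± 1643 CPM in cells without (SD, n = 4), higher in all 4 libraries. Dusp1, a phosphatase gene that dampens MAP kinase signalling, had 2612, 2483, 1736 and 2120 CPM in cells with Myc, against 1710, 1833, 1681 and 1726 CPM in cells without, but did not pass (adjusted p = 0.189, edgeR). DESeq2 called it, as did edgeR without the filter on low counts and without library 3. The part of cell handling in these genes was not tested.

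Mycn and Max themselves did not pass in cells with Myc. The log2 fold change of Mycn was -0.36 (SE 0.24, adjusted p = 0.969), higher in 1 of 4 libraries, and that of Max was -0.33 (SE 0.33, adjusted p = 0.969), higher in 0 of 4. Ifitm1, an interferon-induced membrane protein gene of the HSC identity list, had a log2 fold change of -0.34 and missed the threshold (adjusted p = 0.0902, edgeR), though DESeq2 called it, as did edgeR without the filter on low counts, without library 3 and without library 4. Of 27 HSC identity genes tested, edgeR called 0, and 9 were positive, with a median of -0.06. A list of 6 HSC genes held the sort marker genes Procr, Ly6a, Kit and Slamf1 and the transcription factor genes Mecom and Hlf. It summed to 1888 ± 178 CPM in cells with Myc and 2161 ± 276 CPM in cells without, lower in all 4 libraries. Across cells its rho with Myc averaged -0.11, with libraries from -0.25 to 0.06.

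No gene passed between cells with and without Mycn (0 of 4538, 0.00%) in edgeR's quasi-likelihood test. In simulated counts with known changes, this test recovered 58% of genes changed by 1 on the log2 scale and 10% of those changed by 0.5. At an unadjusted p under 0.05 there were 289 genes (6.37%), and DESeq2 called 2. Of 26 MYC targets tested 18 were positive, with a median log2 fold change of 0.23 against 0.01 for all genes. Their sum was 9734 ± 239 CPM in cells with Mycn and 8321 ± 203 CPM in cells without, higher in 4 of 4 libraries.

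Eif5a, a translation factor and 1 of the 3 targets with the most counts, had 1304.5, 1141, 1285 and 1169 CPM in cells with Mycn, against 989.9, 970.3, 1048 and 854.7 CPM in cells without. Its ranges did not overlap, but it did not pass (log2 fold change 0.34, SE 0.12, adjusted p = 0.599, edgeR). Ptma, a chromatin-linked acidic protein gene, had a log2 fold change of 0.21 (adjusted p = 0.840, edgeR) and Eef1a1, the elongation factor, one of -0.00. Of 27 oxidative phosphorylation genes 21 were positive (median 0.13), and their sum was 12578 ± 663 CPM in cells with Mycn and 11480 ± 452 CPM in cells without, higher in 4 of 4. Of 25 ribosome biogenesis genes 20 were positive, with 0 calls and a median of 0.13. S phase genes summed to 1718 ± 606 CPM in cells with Mycn and 1269 ± 271 CPM in cells without. G2/M genes summed to 1574 ± 381 and 1243 ± 162 CPM. Both sums were higher with Mycn in 4 of 4 libraries. In cells with and without Myc, G2/M genes summed to 1602 ± 347 and 1272 ± 266 CPM, higher in 4 of 4. S phase genes summed to 1595 ± 217 and 1443 ± 677 CPM there, higher in 3 of 4.

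Cells with Mycn held more genes at equal depth. The median number of genes detected in libraries 1 to 4 was 2768, 2584, 2785 and 2741 in cells with Mycn, against 2534, 2132, 2539 and 2434 in cells without. With Myc the medians were 2710, 2491.5, 2759 and 2766, against 2668, 2441.5, 2649 and 2434 in cells without. The part of this difference in the sums was not tested.

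Cd27, the surface receptor on which the study sorted, did not pass in any comparison. It had 161, 168, 191 and 119 CPM in cells with Mycn, against 238, 264, 195 and 317 CPM in cells without, lower in 4 of 4 libraries (log2 fold change -0.66, SE 0.24, adjusted p = 0.599, edgeR). In cells with Max, Cd27 had 161, 165, 116 and 161 CPM, against 214, 227, 244 and 216 CPM in cells without (log2 fold change -0.59, adjusted p = 0.754). With Myc it was higher in 2 of 4 libraries (log2 fold change -0.09, adjusted p = 0.988). In cells with Mycn the log2 fold change of Myc was 0.20 (SE 0.21, adjusted p = 0.894) and that of Max -0.27 (SE 0.37, adjusted p = 0.941). The transcript of a cell does not give its gate.

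Cells with Max differed in the most genes, 7 of 4538 (0.154%), of which 6 were higher (0.132%) and 1 lower (0.0220%). At an unadjusted p under 0.05 there were 288 genes (6.35%). The higher genes were Hes1, the Notch target and repressor, the stress genes Ppp1r15a, Hspa5 and Dnajb1, and the immediate early genes Dusp1 and Jun.

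Hes1 stood at 855, 787, 354.5 and 348 CPM in cells with Max, against 337.5, 272, 216 and 134.5 CPM in cells without. It was higher in all 4 libraries and the ranges did not overlap (log2 fold change 1.24, SE 0.17, adjusted p = 0.00183, edgeR). Ppp1r15a, which encodes GADD34, the phosphatase subunit that restarts translation after stress, had 1669, 1578, 1267 and 1328 CPM in cells with Max, against 864.5, 766, 654 and 1051 CPM in cells without (log2 fold change 0.82, SE 0.12, adjusted p = 0.00302). Dusp1 had 2538, 3335, 2607 and 2324 CPM, against 1948, 1844, 1138 and 1706 CPM in cells without (log2 fold change 0.72, SE 0.11, adjusted p = 0.00307). For both the ranges did not overlap.

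Each of these 3 calls held in 11 of 12 alternatives. Hes1 lost it without the replicate block (adjusted p = 0.06), Ppp1r15a at the deposited depth (0.484) and Dusp1 without library 3 (0.0589).

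Hspa5, the endoplasmic reticulum chaperone BiP, was higher by 0.77 (SE 0.14, adjusted p = 0.0261), Jun, an AP-1 subunit gene, by 0.42 (SE 0.08, adjusted p = 0.0341) and Dnajb1, a heat shock co-chaperone gene, by 0.85 (SE 0.17, adjusted p = 0.0403), all on the log2 scale and in 4 of 4 libraries. These were lost without the runs, with adjusted p of 0.0617 for Hspa5, 0.113 for Jun and 0.0617 for Dnajb1, which left 4 of the 7 calls, while the log2 fold changes were 0.73, 0.38 and 0.82. The runs put 1 cell among those with Max and 11 among those without, and their part in the lost calls was not tested. Without library 3 there were 3 calls, and at the deposited depth 2.

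**Figure D5:**
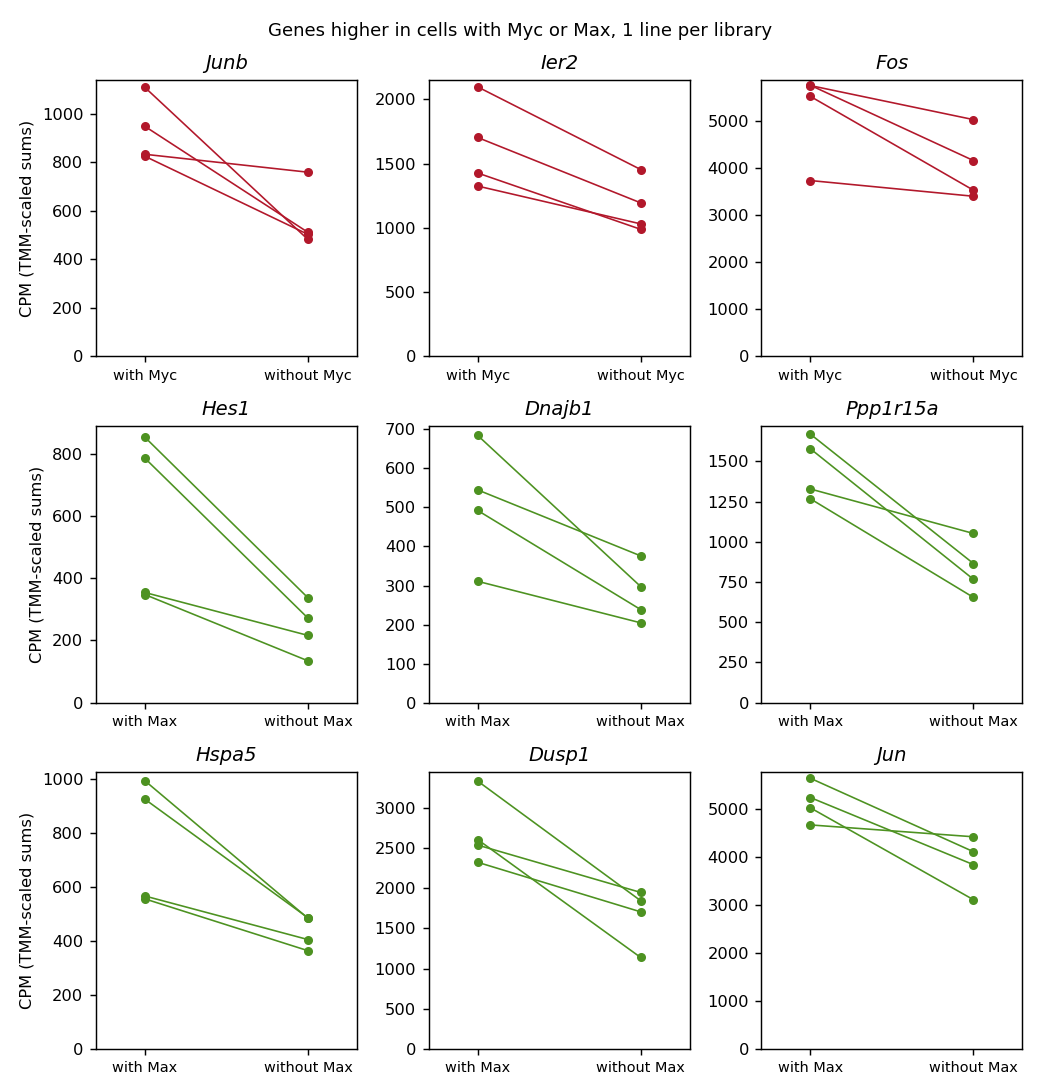
Level (CPM after TMM scaling, linear axis from 0) of 9 genes that were higher in cells with Myc or Max, in the cells with a count of the member (left) and without (right), with 1 line per library. The lines of Hes1, Ppp1r15a and Dusp1 are higher in cells with Max in all 4 libraries.

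Of the 16 immediate early genes, 3 passed in cells with Max, namely Dusp1, Jun and the heat shock gene Dnajb1, which the list holds. In all, 15 were positive, 12 of them at an unadjusted p under 0.05 in edgeR's test. The median of the immediate early genes was 0.42, against -0.02 for all genes. Their sum was 22166 ± 1727 CPM in cells with Max and 16766 ± 2809 CPM in cells without, higher in 4 of 4 libraries. Fos (0.29, adjusted p = 0.218), Junb (0.57, adjusted p = 0.543) and Ier2 (0.31, adjusted p = 0.769), the genes called with Myc, did not pass with Max in edgeR's test. Fos passed by DESeq2, with at least 3 thinned counts and without library 1. Among 10 quiescence genes edgeR called 0, and Apoe, the apolipoprotein E gene, was nearest (log2 fold change 0.54, adjusted p = 0.0580, edgeR). Apoe passed by DESeq2, with its size factors, without the filter on low counts, with at least 3 thinned counts, without library 1 and without library 4. The whole quiescence list summed to 6220 ± 611 CPM with Max and 5157 ± 180 CPM without. It shares Egr1, Nr4a1 and Btg2 with the immediate early list.

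Ribosomal protein genes had mostly negative log2 fold changes. Of 76 tested, 72 were negative with Max, 62 with Mycn and 53 with Myc, with 0 calls by edgeR and medians of -0.13, -0.10 and -0.04. Over all genes tested, 47.1%, 51.4% and 49.9% were positive in these comparisons. Across cells, the mean rho with this list was -0.13 for Max (libraries from -0.36 to 0.02). It was 0.005 for Mycn (-0.11 to 0.07) and -0.008 for Myc (-0.18 to 0.19). In the Myc comparison DESeq2 called Rps3, as did edgeR without library 3. The summed level of the list was 191236 ± 7045 CPM in cells with Max and 204700 ± 9289 CPM in cells without. In cells with Max the log2 fold change of Myc was 0.42 (SE 0.24, adjusted p = 0.797), positive in 3 of 4 libraries, and that of Mycn 0.04 (SE 0.24, adjusted p = 0.987).

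Some marker lists of other cell types moved with the classes in all 4 libraries. The megakaryocyte list (6 of 6 genes with counts, led by Gp9, Vwf and Pf4) summed to 230 ± 53.3 CPM, from 151 to 265, in cells with Max, and to 321 ± 46.1 CPM, from 265 to 359, in cells without. For Mycn the same sum was 337 ± 43.0 CPM, from 295 to 389, in cells with it and 240 ± 26.8 CPM, from 201 to 260, in cells without. The T and NK cell list (4 of 6 genes with counts, almost all from Klrb1c) summed to 78.8 ± 52.3 CPM, from 37.4 to 148, in cells with Mycn and 46.0 ± 32.2 CPM, from 14.9 to 86.9, in cells without. HSCs express part of these genes too, and their part in the results was not tested. Single markers were uneven within a list. Prtn3 and S100a8 of the neutrophil list had counts in 256 and 72 of 292 cells and Elane in 1, Cd79b of the B cell list in 109 and Pax5 in 1, and Cd3e and Cpa3 each in 1.

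Cells with Myc only and cells with Mycn only were also compared directly, 58 against 73 cells. No gene passed (0 of 4474, 0.00%) in edgeR's quasi-likelihood test, with 154 genes (3.44%) at an unadjusted p under 0.05 and 0 calls by DESeq2. In simulated counts with known changes, the same test recovered 8% of genes changed by 1 on the log2 scale. It recovered 58% of those changed by 2. The 0 calls therefore do not show that the classes are alike. Ctla2a, a cathepsin inhibitor gene, had an unadjusted p of 0.000265 from edgeR (log2 fold change 1.13, SE 0.24, higher with Myc only in 4 of 4 libraries). Immediate early genes were positive in 13 of 16 (median 0.28) and oxidative phosphorylation genes in 6 of 27 (median -0.15), against -0.03 for all genes. Max did not differ detectably, at -0.02 (SE 0.52).

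Genes with an E-box near the start site stood close to the rest in each comparison. Of 3597 tested genes with a RefSeq window in the Myc comparison, 490 (13.6%) held CACGTG. Their median log2 fold change was 0.04, against 0.00 for the others. With Mycn the medians were 0.08 and 0.00, and with Max -0.01 and -0.03. Of the called genes with a window, 0 of 2 in the Myc comparison and 1 of 5 in the Max comparison held the motif.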

How the data were processed

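RNA of single cells in 4 libraries of 1 group was measured. The authors deposited 1 table of raw counts, genes by cells, without normalization. Trimmomatic 0.36, HISAT2 2.1.0 and HTSeq 0.9.1 are named, with the GRCm38 build, per the submitters' processing notes. Whether molecular identifiers were collapsed, and the strand setting of the counting, are not given in the sources used here. The name of a cell gave its library. Per the labels' protocols, sort settings avoided doublets, and no doublet caller was run.

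The members and gene lists were chosen with earlier results of these data known. Cells with at least 10000 counts and 1000 genes were kept. Shares carry 95% exact binomial intervals. For co-detection, rho and classes, cells were thinned to 30000 counts with a fixed seed. List values are the mean of log counts per 10000 over the members of a list, and rho was computed within each library. A cell was in a class with at least 1 thinned count. Each cell of the runs had correlations above 0.15 with at least 5 other kept cells, of any library, after values were centred within libraries. The cells also had to form an unbroken stretch of at least 5 consecutive cell numbers in a library. Thinned counts were summed per library and class and tested with edgeR 4.0.16 (R 4.3.3; TMM, quasi-likelihood test, library as a block, Benjamini-Hochberg, threshold 0.05) on 4538 genes with a count in at least 20% of cells (4474 for Myc only against Mycn only). The library blocks the sums because both classes came from the same library. SE was computed from the log2 fold change and its F value. Alternatives were DESeq2 1.42.0, its size factors, no low-count filter, no replicate block, the deposited depth, at least 3 counts, another seed, no runs and each library left out. Scripts were tested on simulated data.

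Named genes are the members, the MYC network, up to 10 called genes in each direction per comparison, the 5 genes with the highest and lowest mean rho, and the 3 highest or any called members of other lists. Kit, Slamf1, Trrap, Zbtb17, Fbxw7, the cycle genes and the defining genes of mature cells were named outside this rule, after their values were seen. Some items, among them a called gene, are not reported here.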

Additional observations from a re-analysis of the deposited data

Results flagged for a closer look

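In 3 of 37 measures examined, 1 library lay far from the other 3, and chance alone flags about 1 in 20 such groups of 4. The Myc level of library 2 was 377 CPM, while the others lay between 239 and 259 CPM. As a mean of the CPM of single cells it was 276 in library 2 and 266 in library 1, so library 2 did not stand apart on that scale. The rho of Myc with the HSC identity list was 0.25 in library 4, while the others lay between -0.10 and -0.08. The rho of Mycn with G2/M genes was -0.080 in library 3, while the others lay between 0.10 and 0.12.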

How the results depend on the processing

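Counts of calls were the least stable results. Between cells with and without Myc, the 3 calls became 7 by DESeq2, 13 with no filter on low counts, and 0 with no replicate block, at the deposited depth, with at least 3 thinned counts, with another thinning seed and without the runs, and ranged from 0 (without library 1) to 11 (without library 3) with 1 library left out. For Mycn, 0 calls became 2 by DESeq2, 5 with no filter and 1 with at least 3 thinned counts, and ranged from 0 to 2 (without library 3). For Max, 7 calls became 11 by DESeq2, 11 with no filter, 3 with no replicate block, 2 at the deposited depth and 4 without the runs, and ranged from 3 (without library 3) to 8 (without library 1). Between Myc only and Mycn only, 0 calls became 3 with no filter. The share of cells with Myc was 44.5% with at least 3 counts and 51.4% after thinning, that with Mycn 53.4% and that with Max 30.5% with at least 3 counts. The mean rho of Myc with HSC identity was -0.20 with summed list counts, in which Ifitm1 and Ifitm3 weighed most, negative in all 4 libraries. Given genes detected, the mean rho of Mycn was 0.061 with S phase and -0.039 with G2/M. The cause of these moves was not tested. No called gene changed sign in any of these alternatives. The labels give 1 group, so no pairing of samples across groups was possible, and the block is the library. Depth limits every share, since a cell without a count may hold the transcript.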
